A study of Mus musculus with 31 samples.

Results

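The 10 circadian clock genes described here are Arntl, Npas2, Clock, Per1, Per2, Per3, Nr1d1, Nr1d2, Dbp and Tef, read by symbol from the gene counts of masseter muscle (MM), a jaw-closing muscle. They are 10 of 22609 gene symbols, were taken by name and not by a threshold on a value, and all 10 had counts in all 31 libraries. The mice were C57BL/6J males of 2 to 4 months, held on a light–dark cycle, and the left MM was injected and dissected whole. The CFA experiment (9 mice) holds vehicle (n = 3) and complete Freund's adjuvant, an oil emulsion of killed mycobacteria that provokes inflammation, at day 1 (n = 3) and day 5 (n = 3). The Col experiment (22 mice) holds vehicle (n = 3) and collagenase type 2, an enzyme that digests collagen and damages the tissue. Collagenase was given at 0.2U in the groups titled 1C (n = 4) and RPC (n = 4), for which the labels give no day, and at 10U on day 2 (n = 4), day 6 (n = 3) and day 12 (n = 4). Days are those of the sample titles, which for some Col groups differ from the study's text. Hour of collection is not given in the sources used here, nor is the day on which vehicle mice were sampled.

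The core clock of a cell is a feedback loop. The proteins of Arntl (also called Bmal1) and Clock, or its paralogue Npas2, pair up and switch on genes that carry an E-box, among them the Per genes, the Nr1d genes, Dbp and Tef. Per proteins then block that pair, and Nr1d proteins (Rev-erb) repress Arntl, so that in a cycling tissue Arntl and Npas2 peak when Dbp and the Per genes are low. Levels of these genes therefore depend on the hour at which a muscle is taken.

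Counts on genes ranged from 14843778 to 29076671 per library (median 20834472). Values below are CPM, the counts of a gene divided by the size of its library and brought to a common scale, with TMM normalization over all 31 libraries. Muscle fibre markers summed to 131300–196900 CPM in Col vehicle, 34620–79620 at 10U day 2, 45730–80320 at day 6 and 63160–155500 at day 12. At 0.2U they summed to 95530–135600 CPM in 1C and to 94550–124200 in RPC, which lay below every Col vehicle mouse. In CFA libraries they ranged from 116500 to 249600. Of these 10 markers edgeR called 0 in 1C and in RPC, where it called 0 of 14493 and 0 of 14269 genes. DESeq2 called 1 and 6 of the 10, all lower, where it called 519 and 443 of all genes. Leukocyte markers summed to 130.8–489.7 CPM in Col vehicle, 512.9–1407 at 10U day 2, 1325–2638 at day 6 and 133.4–954.8 at day 12. Salivary gland markers, which belong to a tissue beside the MM, differed between mice of the same group: 90.77–146300 CPM in Col vehicle, 132–36000 in 0.2U 1C, 26340–288400 in RPC, 48.01–118500 at 10U day 2, and at most 584.5 at 10U day 6 and day 12. The part of these shifts in the clock values was tested only where stated beside a result. At 10U day 12, mouse 4 stood apart with the lowest muscle fibre sum and the highest leukocyte sum of its group. Bulk RNA cannot tell fewer cells of a type from less RNA per cell.

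The counting also differed between groups. Reads that fell on more than 1 gene made up 0.680–0.883% of gene reads in the 11 libraries of 10U and 0.147–0.318% in the other 20. Genes with at least 50% of their exon bases under a gene of the opposite strand had median log2 fold changes of -0.34 (54 genes), -0.35 (55 genes) and -0.30 (53 genes) at 10U day 2, day 6 and day 12 against vehicle, where genes with no such overlap had 0.03, 0.01 and 0.02. Dbp shares 16.7% of its exon bases with Sphk2 and Nr1d1 shares 8.42% with Thra, each on the opposite strand, and the other 8 genes share none. A change of counting therefore cannot be told apart from 10U in comparisons with vehicle, most directly for those shared bases. The 10U groups were alike in their share of such reads, but how they were counted is not given.

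Per kilobase of exon, the transcriptional repressor gene Nr1d1 was the highest of the 10 in Col vehicle, at 93.6 ± 17.5 CPM per kb (SD, n = 3), followed by Tef at 45.9 ± 12.3. Next came Dbp at 25.3 ± 2.84, Nr1d2 at 20.2 ± 4.26 and Per1 at 16.1 ± 1.26, then Arntl at 9.28 ± 1.45 and Clock at 5.36 ± 2.03. Per3 at 2.59 ± 0.216, Per2 at 1.86 ± 0.642 and Npas2 at 1.64 ± 0.135 CPM per kb closed the order. The SD ranges of Dbp and Nr1d2, of Nr1d2 and Per1, of Per3 and Per2, and of Per2 and Npas2 overlapped. Whether these neighbours differed within the same mice was not tested. CFA vehicle gave wider spreads, with Nr1d1 at 97.9 ± 48.2, Tef at 72.7 ± 34.0 and Dbp at 25.6 ± 19.4 CPM per kb (SD, n = 3).

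Dbp, which encodes a D-box binding transcription factor and is a direct output of the Arntl and Clock pair, moved most (chr7:52960458-52965525, mm9, plus strand). In Col vehicle its level was 69.1, 84.0 and 70.1 CPM. At 10U it was 2.52, 4.37, 1.20 and 7.65 CPM on day 2, 14.6, 12.2 and 13.0 CPM on day 6, and 8.34, 10.0, 9.24 and 5.97 CPM on day 12. Every 10U mouse lay far below every Col vehicle mouse, and day 6 lay above both other days without overlap. Dbp fell by 4.20 ± 0.56 (log2, SE) on day 2 (adjusted p = 0.0257), by 2.49 ± 0.17 on day 6 (adjusted p = 0.000642) and by 3.11 ± 0.20 on day 12 (adjusted p = 0.000593) in edgeR's quasi-likelihood test with Benjamini-Hochberg adjustment, which is 18.4-fold, 5.61-fold and 8.62-fold lower. Taken per 1000 CPM of muscle fibre markers, Dbp was 0.351–0.534 in Col vehicle and 0.0270–0.0999, 0.162–0.266 and 0.0536–0.0944 on the 3 days, again with no overlap. Any part of the Sphk2 overlap in the comparisons with vehicle was not tested. The day 2 call was lost without Col vehicle mouse 1 or 2 or 10U mouse 1 or 2 (highest adjusted p = 0.111, edgeR quasi-likelihood). Without the libraries above 1000 CPM of salivary gland markers, an alternative chosen after seeing the data that leaves 1 vehicle mouse, the log2 fold change was -2.91 on day 12 (adjusted p = 0.0541, edgeR quasi-likelihood) and -2.37 on day 6 (adjusted p = 0.00895).

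In the other groups Dbp spread widely. CFA vehicle mice had 92.7, 122 and 11.5 CPM, CFA day 1 mice 28.0, 97.1 and 8.82, and CFA day 5 mice 129, 161 and 41.5. Mouse 3 was the lowest of each CFA group, and in CFA vehicle it reached the level of the 10U groups. At 0.2U, Dbp was 52.5, 127, 22.1 and 79.8 CPM in 1C and 53.5, 72.1, 33.9 and 75.4 CPM in RPC, which overlapped Col vehicle.

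**Figure D1:**
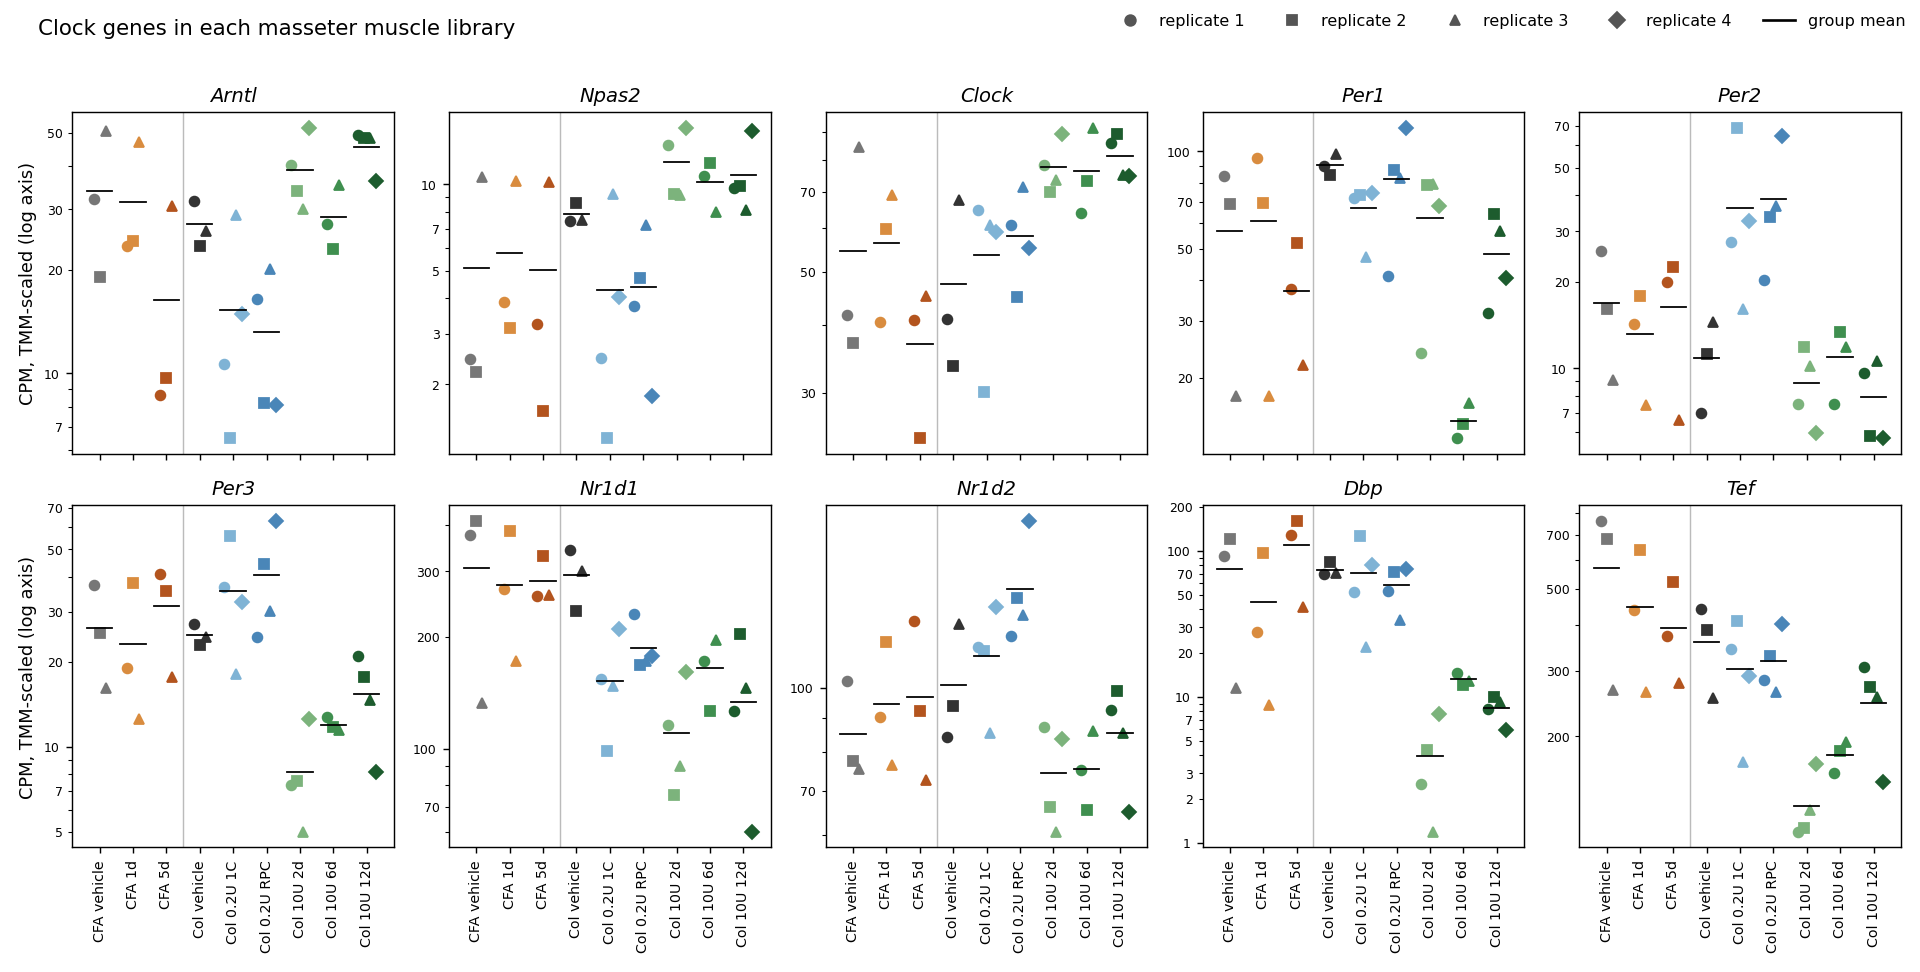
TMM-scaled CPM (log axis) of the 10 clock genes in each of 31 mice, by group, with marker shape for the mouse number and a black line for the group mean. Dbp lies at 1.20–14.6 CPM in the 11 mice of 10U and at 69.1–84.0 CPM in Col vehicle, and Per1 is lowest at 10U day 6 (13.0–16.7 CPM).

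Tef encodes a PAR bZIP factor related to that of Dbp (chr15:81632851-81657291, mm9, plus strand). Col vehicle mice had 441, 388 and 253 CPM, and 10U mice had 111, 113, 127 and 168 CPM on day 2, 160, 183 and 194 CPM on day 6, and 308, 272, 255 and 151 CPM on day 12. Day 2 and day 6 lay below vehicle without overlap, and day 12 overlapped it. Tef fell by 1.45 ± 0.26 (log2, SE; adjusted p = 0.0481, edgeR quasi-likelihood) on day 2 and by 1.01 ± 0.24 (adjusted p = 0.0217) on day 6, and on day 12 the log2 fold change was -0.50 ± 0.28 (adjusted p = 0.394). Per 1000 CPM of muscle fibre markers Tef was not lower: 1.93–2.24 in vehicle against 2.12–3.19 on day 2 and 2.31–3.99 on day 6. The day 6 call was lost without Col vehicle mouse 1 or any mouse of day 6 (highest adjusted p = 0.0914 over all alternatives, edgeR quasi-likelihood). It was also lost with a replicate block (adjusted p = 0.0753, edgeR quasi-likelihood). The day 2 call was lost without Col vehicle mouse 1 or 2 or 10U mouse 1, 2 or 3 (highest adjusted p = 0.191, edgeR quasi-likelihood).

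The Per genes encode the repressors of the loop, and they did not move together. Per1 (chr11:68908719-68923462, mm9, plus strand) stood at 90.0, 84.3 and 98.4 CPM in Col vehicle and at 13.0, 14.4 and 16.7 CPM on 10U day 6. It was 23.8, 78.8, 79.4 and 67.9 CPM on day 2 and 31.7, 64.2, 56.7 and 40.7 CPM on day 12. Day 6 was below every other mouse of the Col experiment, while day 2 mouse 1 lay apart from the other three of its group. On day 6 Per1 fell by 2.63 ± 0.17 (log2, SE; adjusted p = 0.000548, edgeR quasi-likelihood with Benjamini-Hochberg adjustment), 6.20-fold. On day 2 and day 12 its log2 fold changes were -0.52 ± 0.38 (adjusted p = 0.358) and -0.87 ± 0.24 (adjusted p = 0.148, edgeR quasi-likelihood). Per 1000 CPM of muscle fibre markers Per1 was 0.439–0.749 in vehicle and 0.188–0.314 on day 6, also without overlap. At 0.2U it was 71.6, 73.5, 47.4 and 74.5 CPM in 1C and 41.2, 87.3, 82.7 and 118 CPM in RPC.

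Per2 (chr1:93312561-93355907, mm9, minus strand) showed the other order. It stood at 6.97, 11.2 and 14.4 CPM in Col vehicle, at 27.5, 69.0, 16.1 and 32.5 CPM in 0.2U 1C, and at 20.4, 33.7, 36.8 and 64.5 CPM in 0.2U RPC. All 8 mice of 0.2U were above all 3 vehicle mice. Its log2 fold change was 1.73 ± 0.49 in 1C (adjusted p = 0.276) and 1.87 ± 0.43 in RPC (adjusted p = 0.265), so neither passed edgeR's quasi-likelihood test. Under DESeq2 both were called. In the CFA groups Per2 was 6.62–25.5 CPM and overlapped its vehicle at both days. In the 10U groups Per2 ranged from 5.70 to 13.4 CPM, which overlapped vehicle on every day.

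Per3 (chr4:150377761-150418774, mm9, minus strand) was 27.1, 23.0 and 24.5 CPM in Col vehicle, 7.35, 7.58, 5.01 and 12.6 CPM on 10U day 2, 12.8, 11.7 and 11.4 CPM on day 6, and 21.0, 17.7, 14.7 and 8.15 CPM on day 12. All 3 days lay below vehicle without overlap. It fell by 1.58 ± 0.31 (log2, SE; adjusted p = 0.0483, edgeR quasi-likelihood) on day 2 and by 1.05 ± 0.16 (adjusted p = 0.00623) on day 6, and on day 12 the log2 fold change was -0.65 ± 0.28 (adjusted p = 0.283). Per 1000 CPM of muscle fibre markers its ranges overlapped vehicle on each day (0.113–0.212, 0.142–0.256 and 0.101–0.143 against 0.120–0.187). The day 2 call was lost without any 1 of the vehicle mice or 10U mouse 1, 2 or 3 (highest adjusted p = 0.194, edgeR quasi-likelihood), and the day 6 call in one fit of all 31 libraries (adjusted p = 0.0685).

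Nr1d1 (chr11:98629246-98636647, mm9, minus strand) and Nr1d2 (chr14:19036568-19071641, mm9, minus strand) encode the Rev-erb repressors of Arntl. Nr1d1 stood at 342, 234 and 301 CPM in Col vehicle, 116, 75.5, 90.2 and 161 CPM on 10U day 2, 173, 126 and 196 CPM on day 6, and 126, 203, 146 and 60.1 CPM on day 12. The 10U mice were all below the vehicle mice. On day 6 it fell by 0.82 ± 0.24 (log2, SE; adjusted p = 0.0407, edgeR quasi-likelihood), a call lost without Col vehicle mouse 1 or 3 or any mouse of day 6 (highest adjusted p = 0.139 over all alternatives), in one fit of all 31 libraries (0.102) and with a replicate block (0.0637). The muscle fibre marker sums of day 6 lay below vehicle. Per 1000 CPM of these markers the direction turned: Nr1d1 was 1.22–2.29 in vehicle and 2.44–2.76 on day 6, higher without overlap. The log2 fold changes on day 2 and day 12, -1.37 ± 0.30 (adjusted p = 0.0532) and -1.08 ± 0.36 (adjusted p = 0.198), were larger and not called by edgeR's quasi-likelihood test in pairs of groups. The day 2 value was called in one fit of all 31 libraries (-1.40, adjusted p = 0.00569), with a replicate block (adjusted p = 0.00671) and without 10U day 2 mouse 4 (adjusted p = 0.00246). At 0.2U, 1C mice had 154, 99.0, 148 and 210 CPM and RPC mice 230, 168, 173 and 178 CPM, all below vehicle, with log2 fold changes of -0.92 ± 0.26 (adjusted p = 0.277) and -0.60 ± 0.18 (adjusted p = 0.291, edgeR quasi-likelihood). Per 1000 CPM of muscle fibre markers Nr1d1 overlapped vehicle in 1C (0.730–1.65) and in RPC (1.54–1.85). Nr1d2 varied least of the 10, 2.94-fold from 60.7 to 178 CPM over 31 mice, and was called in no comparison of a treated group with vehicle. Its highest value was in 0.2U RPC (120, 137, 129 and 178 CPM) and its lowest on 10U day 2 (87.3, 66.1, 60.7 and 83.8 CPM).

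Arntl, Npas2 and Clock encode the activators of the loop, and edgeR's quasi-likelihood test called none of them in a treated group against its vehicle. Arntl (chr7:120350979-120457636, mm9, plus strand) was 31.8, 23.6 and 26.0 CPM in Col vehicle, 40.4, 33.8, 30.1 and 51.9 CPM on 10U day 2, 27.2, 23.0 and 35.2 CPM on day 6, and 49.4, 48.4, 48.5 and 36.2 CPM on day 12. Only day 12 lay above vehicle without overlap, at a log2 fold change of 0.80 ± 0.15 (adjusted p = 0.0589, edgeR quasi-likelihood), which DESeq2 called (0.78, adjusted p = 0.00148). Per 1000 CPM of muscle fibre markers Arntl was above vehicle (0.123–0.198) without overlap on all 3 days, at 0.651–1.17, 0.393–0.504 and 0.317–0.574. The marker sums of day 2 and day 6 lay below vehicle, which raises this ratio for a gene of unchanged CPM. Clock, Npas2 and Nr1d2 also lay above vehicle without overlap on this scale on both days. On day 6 Clock was 0.926–1.60 (vehicle 0.175–0.515), Npas2 0.0998–0.261 (0.0379–0.0573) and Nr1d2 1.07–1.43 (0.428–0.952). Dbp lay below vehicle on all 3 days. Without 10U day 12 mouse 4, the library that stood apart, the Arntl log2 fold change of day 12, not scaled to muscle markers, was 0.87 (adjusted p = 0.0407, edgeR quasi-likelihood). In 0.2U 1C Arntl was 10.7, 6.48, 28.9 and 14.9 CPM and in RPC 16.4, 8.19, 20.2 and 8.08 CPM, with log2 fold changes of -0.80 ± 0.46 (adjusted p = 0.501) and -0.99 ± 0.34 (adjusted p = 0.303, edgeR quasi-likelihood). RPC was below vehicle without overlap.

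In the CFA experiment Arntl was 32.1, 19.1 and 50.8 CPM in vehicle, 23.5, 24.3 and 47.0 CPM on day 1, and 8.65, 9.68 and 30.7 CPM on day 5. Mouse 3 was the highest of each group. The day 5 log2 fold change was -0.999 ± 0.575 (adjusted p = 0.516, edgeR quasi-likelihood). When mouse 3 was left out of both groups, a choice made after seeing the data, it was -1.38 (adjusted p = 0.00175, edgeR quasi-likelihood). That fit held only mice 1 and 2 of each group. It called 1339 of 13350 genes, where the fit with mouse 3 called 155 of 14026, and Arntl was the 1 member of 10 called. Salivary gland markers summed to 131200–165300 CPM in the 3 mice of day 5 and 105.5–14930 CPM in CFA vehicle, and their part in the Arntl values was not tested.

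Npas2 (chr1:39250576-39420079, mm9, plus strand), the paralogue of Clock, ranged 12.2-fold over the mice, from 1.30 to 15.8 CPM. Its groups ran from 7.47–8.61 CPM in Col vehicle to 9.18–15.8 on 10U day 2, 8.02–11.9 on day 6 and 8.14–15.3 on day 12, and down to 1.30–9.28 in 0.2U 1C and 1.82–7.22 in RPC. Day 2 lay above vehicle and RPC below it without overlap, and the log2 fold changes, 0.63 ± 0.27 (adjusted p = 0.144) and -0.80 ± 0.41 (adjusted p = 0.422, edgeR quasi-likelihood), were not called. Clock (chr5:76639992-76733817, mm9, minus strand) stood at 40.9, 33.6 and 67.6 CPM in Col vehicle and at 69.8–89.2, 64.1–91.7 and 74.9–89.4 CPM on the 3 days of 10U. Day 2 and day 12 lay above vehicle without overlap. The Clock log2 fold changes were 0.73 ± 0.27 (adjusted p = 0.109), 0.68 ± 0.29 (adjusted p = 0.113) and 0.82 ± 0.25 (adjusted p = 0.18, edgeR quasi-likelihood), so none was called. Without Col vehicle mouse 3, the vehicle mouse with the highest Clock, all 3 days were called, at 1.07 (adjusted p = 0.0486), 1.03 (adjusted p = 0.0114) and 1.21 (adjusted p = 0.0176, edgeR quasi-likelihood).

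Counted over the 10 genes, 10U day 6 had 5 called against vehicle (adjusted p under 0.05), all lower (Per1, Dbp, Per3, Tef and Nr1d1), where 27.3% of 14281 genes were called in either direction and 13.3% were called lower. Day 2 had 3 called, all lower (Dbp, Per3 and Tef), where 2.22% of 14373 genes were called and 1.08% lower. Day 12 had 1 called, Dbp, where 1.23% of 14176 genes were called and 0.466% lower. The median log2 fold change over the 10 genes was -0.47 on day 2, -0.62 on day 6 and -0.46 on day 12, beside medians over all genes tested of 0.02, 0.01 and 0.01. These 3 comparisons share the same 3 vehicle mice. DESeq2 called 4, 5 and 4 of the 10, adding Nr1d1 on day 2 and Arntl, Nr1d1 and Per1 on day 12. It also called more of all genes than edgeR did: 3326 of 14373 on day 2, 5086 of 14281 on day 6 and 902 of 14176 on day 12.

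**Figure D2:**
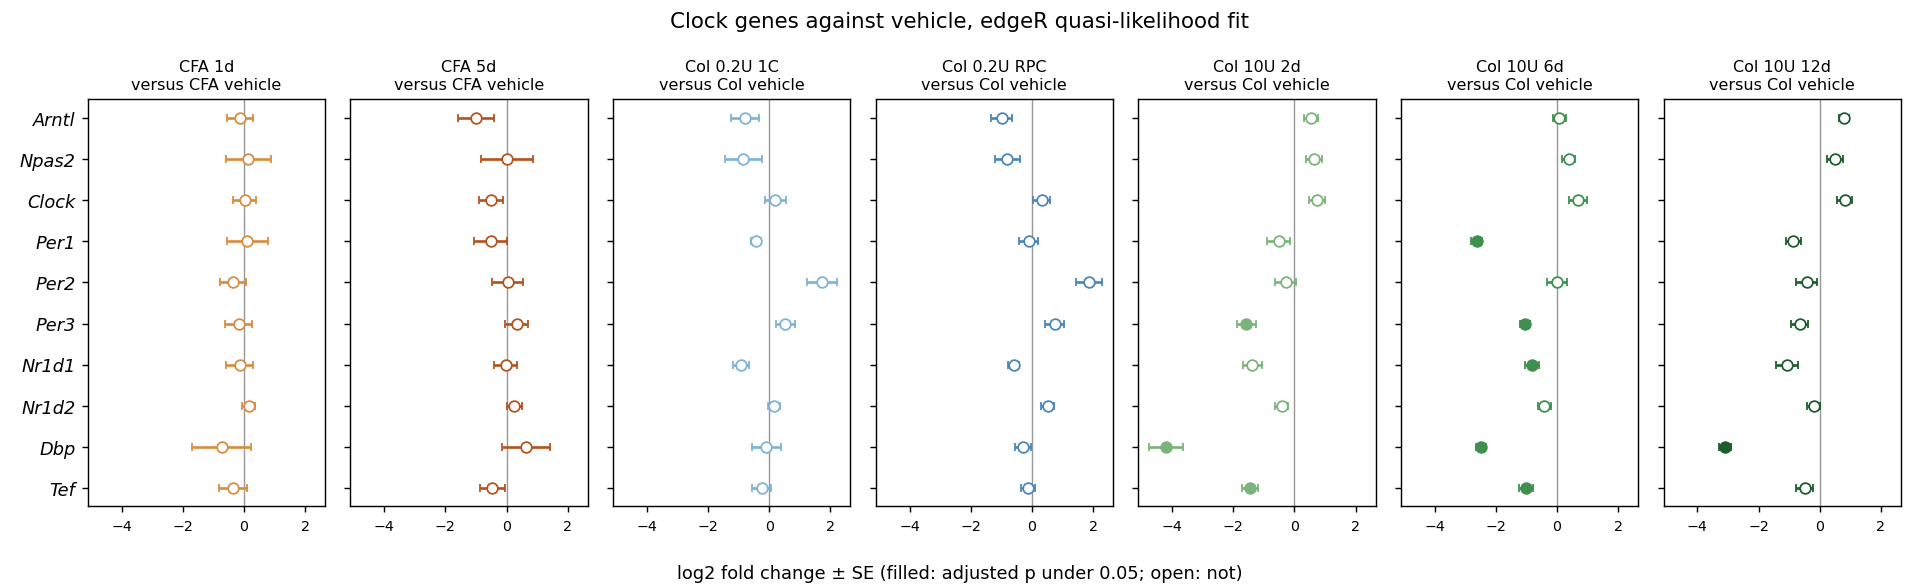
log2 fold change with its SE (edgeR quasi-likelihood) of the 10 genes in the 7 comparisons of a treated group with its vehicle, with filled symbols for an adjusted p under 0.05. Filled symbols are 3 at 10U day 2, 5 at day 6 and 1 at day 12, with Dbp at -4.20, -2.49 and -3.11, and none in the CFA and 0.2U panels.

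No clock gene was called in the CFA or 0.2U groups by edgeR's quasi-likelihood test. On CFA day 1 none of the 10 had an unadjusted p under 0.05 and DESeq2 called 0, where edgeR called 0% of 13944 genes (588 with an unadjusted p under 0.05, and 56 called by DESeq2). On CFA day 5 likewise 0 of the 10 had an unadjusted p under 0.05 and DESeq2 called 0, where edgeR called 1.11% of 14026 genes (899 called by DESeq2). In 0.2U 1C, 3 of the 10 (Per2, Nr1d1 and Per1) had an unadjusted p under 0.05 and DESeq2 called 2 (Per2 and Nr1d1), where edgeR called 0% of 14493 genes (1819 with an unadjusted p under 0.05, and 519 called by DESeq2). In RPC, 5 of the 10 (Per2, Nr1d1, Arntl, Per3 and Nr1d2) had an unadjusted p under 0.05 and DESeq2 called Per2 alone, where edgeR called 0% of 14269 genes (1923 and 443 by the same measures). Per2 was higher and Nr1d1 lower in 8 of 8 mice of 0.2U than in any Col vehicle mouse. The share of all genes without overlap in these comparisons was not counted. Per 1000 CPM of muscle fibre markers Nr1d1 overlapped vehicle in both groups. On that scale Per2 stayed above it (0.161–0.509 in 1C and 0.164–0.557 in RPC against 0.0354–0.11). Adipocyte markers (4 genes) summed to 44.7–976.8 CPM in 1C and 190.4–287.5 CPM in RPC against 28.22–86.85 CPM in Col vehicle, with 0 called by edgeR and 2 and 4 called higher by DESeq2, and their part in the clock values was not tested.

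The vehicle groups of the 2 experiments were compared as a check on level. None of the 10 genes was called by edgeR or DESeq2, and none had an unadjusted p under 0.05, where edgeR called 0.0426% of 14070 genes. Per1 did not overlap, at 84.0, 68.8 and 17.6 CPM in CFA vehicle and 84.3–98.4 in Col vehicle, with a log2 fold change of 0.72 ± 0.49 (adjusted p = 1, edgeR quasi-likelihood). CFA vehicle mouse 3 set much of the spread: leaving it aside, Dbp in vehicle ran from 69.1 to 122 CPM over 5 mice. Across all 9 groups, 9 of the 10 genes were called by edgeR's quasi-likelihood test (Npas2 was not, adjusted p = 0.104), where 71.2% of 15526 genes were called. Dbp had the lowest adjusted p of the 10 (0.000107), then Per2 (0.000357) and Tef (0.000482).

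Days of the 10U experiment, which were alike in their share of reads on more than 1 gene, differed in 3 of the 10 genes. From day 2 to day 6 Per1 fell by 2.11 ± 0.41 (log2, SE; adjusted p = 0.0248, edgeR quasi-likelihood), the 1 gene of 10 called, where 8.73% of 14513 genes were called. Dbp was higher on day 6, at a log2 fold change of 1.71 ± 0.54 (adjusted p = 0.0893), which became 2.29 (adjusted p = 0.0062) without 10U day 2 mouse 4. Without that mouse Per3 (0.84, adjusted p = 0.0191), Nr1d1 (0.81, adjusted p = 0.0266) and Tef (0.60, adjusted p = 0.0111) were also called higher on day 6. Without the libraries above 1000 CPM of salivary gland markers, a fit chosen after seeing the data, the Dbp value was 3.49. That fit leaves 1 mouse of day 2, mouse 3, which had the lowest Dbp of all 31 libraries (1.20 CPM). The Per1 call was lost without 10U day 2 mouse 2 or any mouse of day 6 (highest adjusted p = 0.133, edgeR quasi-likelihood). From day 6 to day 12, Per1 rose by 1.73 ± 0.25 (adjusted p = 0.00954) and Arntl by 0.70 ± 0.18 (adjusted p = 0.0303), while Dbp fell by 0.64 ± 0.19 (adjusted p = 0.0449, edgeR quasi-likelihood), where 26.4% of 14344 genes were called. Per1 lost its call without day 6 mouse 2 (adjusted p = 0.0533), Arntl without day 6 mouse 1 or 2 or day 12 mouse 1, 2 or 3, and Dbp without any mouse except day 12 mouse 4, and the last pair also in one fit of all 31 libraries. Arntl and Dbp thus moved in opposite directions between these days, and Per1 did not move with Dbp.

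The promoters of the genes that moved with or against each other are shown for the motifs that the clock factors bind. The RefSeq table (GRCm38.p6, 250 bases before to 50 after each start) held 9 of the 10 genes. Both strands were searched for the E-box CACGTG, the D-box TTATGTAA or TTACGTAA, to which the proteins of Dbp and Tef bind, and the ROR response element, at which Rev-erb proteins act. An E-box was present in 7.15% of all 32851 promoters, a D-box in 1.06% and a ROR response element in 0.773%. An E-box began 166 bases before 1 of the 2 starts of Per1, and the window of the other start held none. E-boxes began 127 and 138 bases before the starts of 2 promoters of Tef. D-boxes began 205 and 158 bases before the start of Per3, and a ROR response element began 27 bases after a start of Arntl. The motifs are in capitals:
Per1, E-box, chr11:69098767-69098804, plus strand: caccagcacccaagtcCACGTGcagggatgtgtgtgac
Tef, E-box, chr15:81802530-81802567, plus strand: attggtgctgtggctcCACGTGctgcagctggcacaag
Tef, E-box, chr15:81811260-81811297, plus strand: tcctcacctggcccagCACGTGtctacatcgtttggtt
Per3, both D-boxes, chr4:151044800-151044886, minus strand: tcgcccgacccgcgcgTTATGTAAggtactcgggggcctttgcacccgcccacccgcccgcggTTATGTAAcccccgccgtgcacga
Arntl, ROR response element, chr7:113207522-113207560, plus strand: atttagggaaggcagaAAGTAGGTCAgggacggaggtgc
The windows of Dbp, Npas2, Clock, Nr1d1 and Nr1d2 held none of these letters. The table bears only on the sequence next to the start, and no binding was measured.

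Mice of the same group also differed in these genes, and several of the genes varied with or against Arntl. Differences in muscle fibre or salivary gland content between these mice were not removed. Deviations of log2 CPM from the group mean were compared with those of Arntl over 31 mice, in 9 relations with Benjamini-Hochberg adjustment and a permutation test within groups. Npas2 (r = 0.80, adjusted p = 0.00486; rho = 0.68, adjusted p = 0.00843, permutation) and Clock (r = 0.66, adjusted p = 0.00814; rho = 0.65, adjusted p = 0.00843, permutation) varied with Arntl. Per2 (r = -0.73, adjusted p = 0.00513; rho = -0.65, adjusted p = 0.00843, permutation), Dbp (r = -0.64, adjusted p = 0.00814; rho = -0.51, adjusted p = 0.0439, permutation) and Per1 (r = -0.57, adjusted p = 0.00814; rho = -0.53, adjusted p = 0.029, permutation) varied against it. Tef (r = -0.57, adjusted p = 0.0154, permutation) and Per3 (r = -0.57, adjusted p = 0.0171, permutation) passed by Pearson's r, but by rank their adjusted p was 0.0571 and 0.055. Nr1d2 (r = -0.36, rho = -0.30; adjusted p = 0.144 and 0.216, permutation) and Nr1d1 (r = 0.02, rho = 0.13; adjusted p = 0.932 and 0.522, permutation) did not pass.

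Without the 2 mice farthest from the median of Arntl, r was 0.72 for Npas2, 0.67 for Clock and -0.63 for Per2, which still passed, and -0.54 for Dbp and Per1, -0.46 for Tef and -0.43 for Per3, which did not (adjusted p = 0.0612, 0.0612, 0.0862 and 0.111, permutation). The calls of the last 4 thus depended on those mice, although r kept its sign. By rank Clock alone still passed without them (adjusted p = 0.0137, permutation), with Npas2 and Per2 at 0.0521. Within each experiment no relation passed by Pearson's r: over the 9 CFA mice the adjusted p was 0.0833 or more (exact permutation, 216 arrangements), and over the 22 Col mice it was 0.0573 or more (permutation). By rank 1 passed, Nr1d1 in the Col mice, which varied with Arntl and not against it (rho = 0.63, adjusted p = 0.0269, permutation). The sign of r was the same in both experiments for 8 of the 9 genes. Nr1d1 was the exception, with r = -0.64 in the CFA mice and 0.51 in the Col mice, a difference that was not tested.

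**Figure D3:**
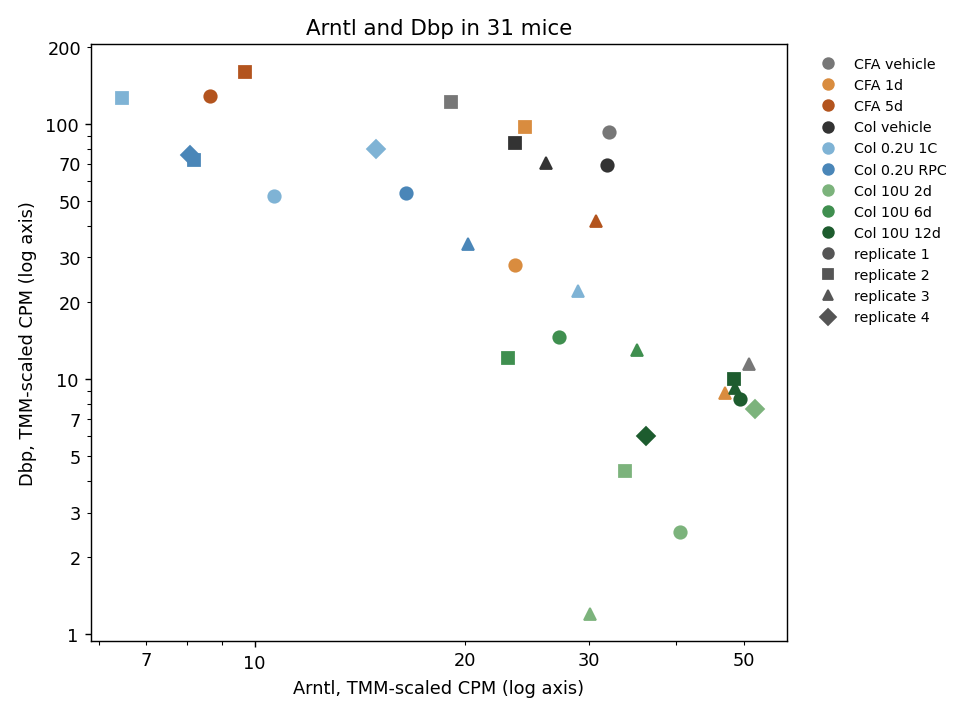
Dbp against Arntl in 31 mice, both as TMM-scaled CPM on log axes, with colour for the group and shape for the mouse number. Mice with Arntl under 20 CPM all have Dbp of 52.5 CPM or more, and mouse 3 of CFA vehicle (50.8 and 11.5 CPM) and of CFA day 1 (47.0 and 8.82 CPM) lie beside the 10U day 12 mice.

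The mouse numbered 3 stood apart in the CFA experiment. In each of the 3 CFA groups it had the highest Arntl, Npas2 and Clock and the lowest Per1, Per2, Per3, Nr1d2, Dbp and Tef, which is 9 of the 10 genes. For comparison, it was the highest of its group in all 3 groups in 6.57% of 14363 genes and the lowest in 5.77%. Per1 was 17.6, 17.6 and 21.9 CPM in mouse 3 of vehicle, day 1 and day 5, where the other 6 mice had 37.6–95.3 CPM. Npas2 was 10.6, 10.3 and 10.2 CPM there and 1.61–3.87 CPM in the other 6. Mouse 3 of CFA vehicle also held the lowest muscle fibre sum of its group (117300 against 240700 and 249600 CPM) and a salivary gland sum of 14930 CPM, and the part of either in the clock values was not tested. Whether mouse number marks an order or hour of collection is not given in the sources used here.

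**Figure D4:**
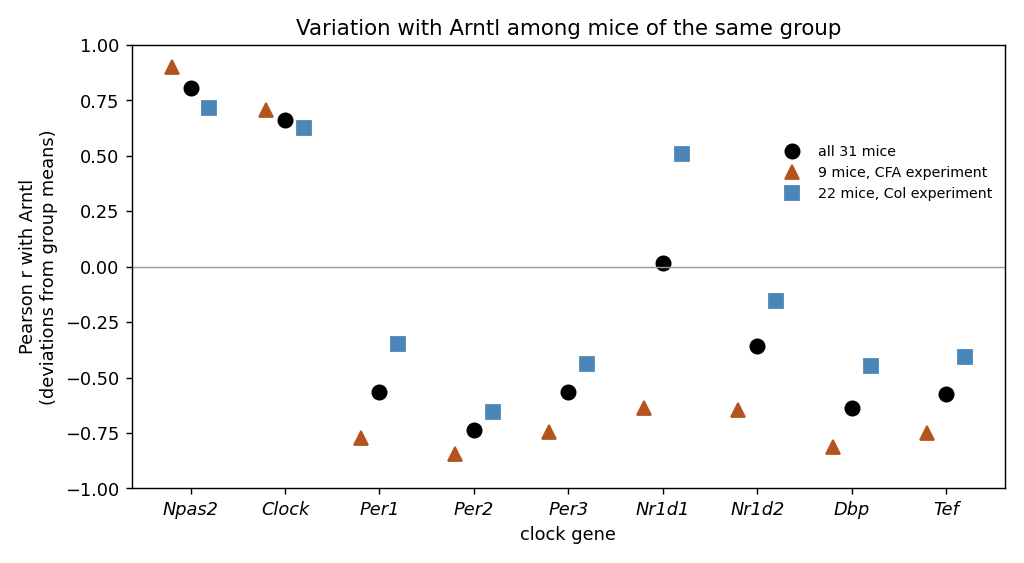
Pearson r between Arntl and each other clock gene, from deviations of log2 CPM from the group mean, over all 31 mice, the 9 mice of the CFA experiment and the 22 mice of the Col experiment. Npas2 and Clock are above 0 and the Per genes, Nr1d2, Dbp and Tef below 0 in all 3 sets, whereas Nr1d1 is -0.64 in the CFA mice and 0.51 in the Col mice.

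Among the 10 genes themselves, the closest pairs of deviations were Dbp with Tef (r = 0.84), Per3 with Tef (0.84), Per3 with Dbp (0.83) and Arntl with Npas2 (0.80), and the most opposed were Npas2 with Tef (-0.81), with Per2 (-0.80) and with Dbp (-0.76), given as descriptions over 31 mice whose libraries also share depth and tissue makeup. Beyond the 10, the genes whose deviations were most like those of Arntl were Leo1 (r = 0.73), Pnpt1 (0.66), Dtx3l (0.65), Pik3ca (0.65) and Gbp4 (0.64), and the most unlike were Tspan4 (-0.78), Rsad1 (-0.69), Ldb1 (-0.65), Uckl1 (-0.64) and Ccdc28a (-0.63). For Dbp the most alike were Tcap (r = 0.86), which encodes a cap protein of titin in the sarcomere, Snrk (0.81), Zdhhc1 (0.81), Pik3ip1 (0.81) and Arrdc2 (0.80). The most unlike were Slc39a10 (-0.84), a zinc transporter gene, Usp12 (-0.83), Cstf2 (-0.78), Actr2 (-0.77) and Nus1 (-0.76). Tspan4 and Tcap are on the list of clock output genes used below.

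Of 16 other clock genes, 14 were tested on 10U day 6 and 4 were called, all lower, beside the 27.3% of all genes called and the 13.3% called lower. Hlf, the third PAR bZIP gene beside Dbp and Tef, was 13.8–16.2 CPM in Col vehicle and 3.08–5.89 CPM on day 6, and fell by 1.75 ± 0.27 (log2, SE; adjusted p = 0.00697, edgeR quasi-likelihood). Cry2, a partner of the Per proteins, fell by 0.88 ± 0.20 (adjusted p = 0.0201), and Csnk1e, a kinase of Per proteins, by 0.51 ± 0.16 (adjusted p = 0.0489, edgeR quasi-likelihood). Btrc and Cry1 had log2 fold changes of -0.50 ± 0.17 and -0.52 ± 0.23 and were not called. On 10U day 2 and day 12 edgeR called 0 of the 14 (6 and 5 with an unadjusted p under 0.05, and 4 and 3 called by DESeq2). In CFA day 1, CFA day 5, 1C and RPC edgeR also called 0 (0, 2, 2 and 3 with an unadjusted p under 0.05, and 0, 1, 0 and 0 called by DESeq2). Over all genes, 4781 of 14373 on 10U day 2 and 2461 of 14176 on day 12 had an unadjusted p under 0.05 in edgeR. DESeq2 called 3326 and 902 of all genes there. For CFA day 1, CFA day 5, 1C and RPC the unadjusted counts were 588 of 13944, 1964 of 14026, 1819 of 14493 and 1923 of 14269. DESeq2 called 56, 899, 519 and 443 of all genes in these. From day 2 to day 6 Nfil3, a repressor at the D-box, fell by 1.58 ± 0.27 (adjusted p = 0.0163), and from day 6 to day 12 it rose by 1.25 ± 0.35 (adjusted p = 0.0372), as did Cry1 by 1.44 ± 0.27 (adjusted p = 0.015, edgeR quasi-likelihood). Across the 9 groups 11 of 15 were called, beside 71.2% of all genes, among them Hlf, Cry2, Btrc and Nfil3.

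Of 11 clock output genes of muscle, 4 were called on 10U day 6, beside 27.3% of all genes. Usp2, a deubiquitinase gene, fell by 1.57 ± 0.19 (log2, SE; adjusted p = 0.00343, edgeR quasi-likelihood), Coq10b, needed for coenzyme Q function, by 0.99 ± 0.14 (adjusted p = 0.00551) and Tcap by 1.67 ± 0.34 (adjusted p = 0.0152). Cdkn1a, an inhibitor of the cell cycle, rose by 3.66 ± 0.54 (adjusted p = 0.00564), so the list did not move one way. Pfkfb3 and Ucp3 had log2 fold changes of -1.65 ± 0.56 and -0.76 ± 0.33 and were not called. On 10U day 2 and day 12 edgeR called 0 of the 11 (6 and 4 with an unadjusted p under 0.05, and 6 and 0 called by DESeq2). In CFA day 1, CFA day 5, 1C and RPC it also called 0 (1, 2, 2 and 4 with an unadjusted p under 0.05, and 0, 0, 2 and 3 called by DESeq2). The counts over all genes by these measures are those given with the other clock genes. Lonrf3 was called lower from day 2 to day 6, and from day 6 to day 12 Cdkn1a was called lower and Tcap higher. Across the 9 groups 10 of 11 were called, beside 71.2% of all genes.

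Glucocorticoid hormone also follows the time of day and acts on Per1, so 11 glucocorticoid-responsive genes were read beside it. On 10U day 6, 6 were called, beside 27.3% of all genes. Tsc22d3 was 260–516 CPM in Col vehicle and 64.3–116 CPM on day 6, and fell by 2.15 ± 0.32 (log2, SE; adjusted p = 0.00615, edgeR quasi-likelihood). Klf15 fell by 1.72 ± 0.29 (adjusted p = 0.00839), Fkbp5, a co-chaperone of the glucocorticoid receptor, by 1.08 ± 0.19 (adjusted p = 0.01) and Ddit4, an inhibitor of mTOR signalling, by 1.43 ± 0.37 (adjusted p = 0.0287), while the metallothionein genes Mt1 and Mt2 rose by 1.05 ± 0.27 (adjusted p = 0.0296) and 1.23 ± 0.33 (adjusted p = 0.0323). From day 6 to day 12, 7 were called, 5 higher and 2 lower, beside 26.4% of all genes: Tsc22d3 rose by 2.20 ± 0.31 (adjusted p = 0.00907) and Klf15 by 1.60 ± 0.33 (adjusted p = 0.0176), and Mt1 and Mt2 fell by 1.39 ± 0.26 and 1.50 ± 0.27. On 10U day 2 and day 12 edgeR called 0 of the 11 (3 and 1 with an unadjusted p under 0.05, and 2 and 0 called by DESeq2). In CFA day 1, CFA day 5, 1C and RPC it also called 0 (2, 6, 4 and 2 with an unadjusted p under 0.05, and 1, 4, 1 and 1 called by DESeq2). The counts over all genes by these measures are those given with the other clock genes. On 10U day 2 they were 4781 and 3326 of 14373, and on CFA day 5 they were 1964 and 899 of 14026. Across the 9 groups 9 of 11 were called, beside 71.2% of all genes. Per1 and Tsc22d3 thus had their lowest group means of the Col experiment on the same day, and any part of hormone level or of the hour of collection in that was not tested.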

How the data were processed

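Bulk RNA-seq of MM was available for 31 libraries in 9 groups. The values deposited by the authors are raw counts per gene. They came from stranded poly-A libraries, and the submitters' processing notes name bcl2fastq, TopHat2, HTSeq and mm9. The strand setting of the counting is not given in the sources used here. The closing lines of unassigned reads, 41.7–58.9% of each file's total, were left out of library sizes. A gene entered a comparison when 3 or more of its libraries reached 10 counts. Tests used edgeR 4.0.16 (quasi-likelihood, TMM, Benjamini-Hochberg, called under 0.05, R 4.3.3) between each pair of groups and across 9 groups. DESeq2 1.42.0 served as an alternative, as did its size factors, no filter, a shared fit, a replicate block and leaving out libraries. Correlations used log2(CPM + 0.5) and 100000 permutations within groups (scipy 1.17.1). Gene models were GENCODE vM1 (mm9). The edgeR step was tested on simulated data.

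The members, lists and tests were chosen with earlier results of these data known. All 10 members were named in every comparison. Of each other list, up to 6 genes with the smallest adjusted p were named in 10U day 6 against vehicle and across 9 groups, with their values in other comparisons, and the 5 highest and 5 lowest r to Arntl and to Dbp. Genes called in other comparisons were named after their values were seen. Some genes of these lists are counted but not reported here by name. No pair of libraries held identical values (0 of 465). The labels do not state that libraries are separate mice. They are called mice here, and p-values measure the spread between them. Same-numbered libraries deviated together (every r over 0.1, 3 pairs) in CFA day 1 against vehicle (0.124–0.555) and in the comparison of vehicle groups (0.107–0.661), where a block changed no member's call.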

Additional observations from a re-analysis of the deposited data

Results flagged for a closer look

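Among 40 sets of 4 mice (10 genes in 4 groups), 4 held a value far from the other 3, where chance gives about 1 in 20. These were Arntl in 10U day 12 mouse 4 (36.24 CPM, low), Clock in 0.2U 1C mouse 2 (30.1 CPM, low), Per1 in 0.2U 1C mouse 3 (47.35 CPM, low) and Nr1d1 in 0.2U RPC mouse 1 (230 CPM, high). The change against the shared vehicle differed between days of 10U, by edgeR's quasi-likelihood test of the days themselves, for Per1 from day 2 to day 6 (log2 -2.11) and, from day 6 to day 12, for Per1 (1.73), Arntl (0.70) and Dbp (-0.64). Reads on more than 1 gene, which no comparison used, averaged 0.772% of gene reads at 10U day 2, 0.826% at day 6 and 0.838% at day 12, above the 0.166–0.236% of Col vehicle.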

How the results depend on the processing

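Over 10 pairwise comparisons, 13 of 100 member values were called. All 13 kept their direction under every alternative, and 2 kept their call under every one: Dbp and Per1 on 10U day 6. The counts of members called moved as follows. DESeq2 called 2 in 0.2U 1C and 1 in RPC (edgeR 0 and 0), 4 on 10U day 12 (edgeR 1) and 2 from day 2 to day 6 (edgeR 1). One fit of all 31 libraries called 3 on 10U day 6 (5 in the pairwise fit) and 1 from day 6 to day 12 (3). The replicate block called 3 on 10U day 6, 5 from day 2 to day 6 and 5 from day 6 to day 12, and changed no other count by over 1.5 times. In these comparisons same-numbered libraries did not all deviate together (lowest r between -0.228 and -0.367), so they share only a number. Fits without libraries over 1000 CPM of salivary gland markers were chosen after seeing the data. They were run on day 6, on day 12 and from day 2 to day 6. Each leaves 1 mouse in its reference group, so the number of members called is not given for them. On day 2 against vehicle such a fit was not run, since it leaves 1 mouse a group. With libraries left out, counts ran 0–4 on 10U day 2, 3–5 on day 6, 1–2 on day 12, 0–5 from day 2 to day 6, 0–5 from day 6 to day 12, 0–1 on CFA day 5, 8–10 across 9 groups, and 0 in the others. Counts over all genes with a single library left out are not given. A change in the members can therefore not be told apart there from a general change in calls. On CFA day 5 without mouse 3 of both groups, 1339 of 13350 genes were called (155 of 14026 with it). Relations with Arntl passing by Pearson's r numbered 7 over 31 mice, 3 without 2 mice, 0 within the CFA mice and 0 within the Col mice, and by rank 5, 1, 0 and 1. Over all genes, edgeR's pairwise counts of 0, 155, 0, 0, 319, 3900, 174, 6, 1267 and 3785 (CFA day 1 and day 5, 0.2U 1C and RPC, 10U day 2, 6 and 12, the vehicles, day 2 to 6, day 6 to 12) became 56, 899, 519, 443, 3326, 5086, 902, 65, 2707 and 5375 in DESeq2, 0, 38, 137, 0, 4943, 5033, 778, 57, 1810 and 3210 in the shared fit, and 1, 130, 1, 10, 4500, 1473, 43, 0, 2208 and 7056 with the block. DESeq2 size factors gave 60 on CFA day 5. The causes were not tested. Counting error was not separated from the spread between mice, and the lowest member count was 26.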
